A study of Rattus norvegicus with 10 samples.

Results

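The 6 genes described here are those of the opioid receptors Oprm1, Oprd1, Oprk1 and Oprl1 and of the peptide precursors Pnoc and Pomc, among 17245 genes that have a probe set with exactly 1 symbol in the platform annotation. A member was any such gene, represented by the probe set with its symbol alone. Each of the 6 has 1 such probe set, so none had to be chosen among several (10702722 for Oprm1, 10880228 for Oprd1, 10875210 for Oprk1, 10843084 for Oprl1, 10784546 for Pnoc, 10883381 for Pomc). A further probe set carries the symbols Ipcef1 and Oprm1 together and was not used. The samples are RNA of the prefrontal cortex (PFC) of adult male Sprague–Dawley rats, taken whole, with no subregions told apart. In the footshock (FS) group, 5 rats spent 40 min in the session and received 0.8 mA shocks adding up to 20 min, and their brains were taken 24 h after it began, the time between being spent in the home cage. The other 5 rats are unshocked controls, kept in the home cage without a session, and bear the 24 h label as well. Each rat has 1 whole-transcript array, and the deposited values are log2 values from RMA, a method that removes background, brings the arrays to a common distribution and summarises the probes of each probe set.

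Opioid receptors sit on neurons and couple to inhibitory G proteins, which lower cyclic AMP, open potassium channels and close calcium channels, so that a neuron fires less and releases less transmitter. The mu, delta and kappa receptors (Oprm1, Oprd1 and Oprk1) bind beta-endorphin, the enkephalins and the dynorphins. The nociceptin receptor (Oprl1) is their close relative but is activated by nociceptin, cut from the precursor encoded by Pnoc, and binds the classical opioid peptides poorly. Opioid peptides are known for the analgesia that follows inescapable shock, and dynorphin at the kappa receptor for the aversive side of stress. In the rat forebrain, Oprm1, Oprk1, Penk and Pdyn are strongly expressed in the striatum, which lies behind and beneath the PFC.

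Differences between FS rats and controls were tested with limma over 18304 probe sets that carry 1 symbol and average more than 4 over the 10 arrays. All 6 members passed this filter, with group means between 6.87 and 8.32. Over all probe sets, 0% were called at an adjusted p under 0.05 (0 of 18304), the smallest value being 0.186. Without adjustment, p was under 0.05 in 9.84% (1802 of 18304), 1053 of them higher and 749 lower in FS rats. When arrays were first centred on their medians, 597 of 1917 such probe sets were higher, so the split between the directions depends on the scaling. Correlations between arrays lay between 0.994 and 0.997. As a check of the tissue, Slc17a7, the vesicular glutamate transporter of cortical projection neurons, had a level of 12.2 to 12.4 in FS rats, against 12.2 to 12.3 in controls. Markers of striatal medium spiny neurons were also present and differed widely from rat to rat. Levels of different probe sets depend on their probes, so genes were not ranked against each other by level.

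None of the 6 members passed the test in limma, with or without adjustment (0 of 6, against 9.84% of all probe sets at an unadjusted p), and in each of them the values of FS rats overlapped those of controls. In 1.94% of all probe sets the groups did not overlap. The RNA is of bulk tissue, in which fewer cells of a type and less RNA per cell cannot be told apart. The spread within the groups, by contrast, differed greatly between the members, from 0.056 for Oprl1 to 0.41 for Oprk1 (SD on the log2 scale, group means removed).

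The 250 bases before the RefSeq start are shown for the members that the promoter table holds (Oprm1, Oprd1 and Pomc, 3 of 6) and for Pdyn, since Oprm1 and Pdyn varied together from rat to rat while Oprd1 and Pomc did not vary with them. Motifs searched on both strands were the TATA box TATAAA, the cyclic AMP response element TGACGTCA, the AP-1 site TGACTCA, the GC box GGGCGG and the E-box CACGTG, and matches stand in capitals. Coordinates are of GRCr8, on the + strand for Oprm1 and Pomc and on the - strand for Pdyn and Oprd1, each read 5′ to 3′. The windows are chr1:45585733-45585982 and chr1:45565121-45565370 for the 2 starts of Oprm1, chr3:137366504-137366753 for Pdyn, chr5:149625000-149625249 for Oprd1 and chr6:32659103-32659352 for Pomc.
Oprm1 start A: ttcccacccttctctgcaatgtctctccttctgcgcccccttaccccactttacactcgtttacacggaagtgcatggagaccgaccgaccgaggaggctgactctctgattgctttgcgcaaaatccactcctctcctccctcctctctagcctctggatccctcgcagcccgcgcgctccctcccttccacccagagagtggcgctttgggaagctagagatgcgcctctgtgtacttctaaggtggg
Oprm1 start B: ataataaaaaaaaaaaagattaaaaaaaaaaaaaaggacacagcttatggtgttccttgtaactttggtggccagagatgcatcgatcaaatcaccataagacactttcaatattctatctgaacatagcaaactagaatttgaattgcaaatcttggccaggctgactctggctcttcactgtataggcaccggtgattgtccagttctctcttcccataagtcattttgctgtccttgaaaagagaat
Pdyn: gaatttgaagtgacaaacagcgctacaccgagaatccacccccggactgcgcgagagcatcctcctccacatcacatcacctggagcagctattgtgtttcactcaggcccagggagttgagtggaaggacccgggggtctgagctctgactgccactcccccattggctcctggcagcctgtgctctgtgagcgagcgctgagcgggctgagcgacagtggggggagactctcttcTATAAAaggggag
Oprd1: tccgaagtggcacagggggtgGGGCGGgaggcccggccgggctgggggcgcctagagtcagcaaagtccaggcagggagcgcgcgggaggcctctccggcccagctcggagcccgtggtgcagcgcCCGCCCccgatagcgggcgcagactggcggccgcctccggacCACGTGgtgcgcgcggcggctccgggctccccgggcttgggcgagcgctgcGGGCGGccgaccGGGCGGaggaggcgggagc
Pomc: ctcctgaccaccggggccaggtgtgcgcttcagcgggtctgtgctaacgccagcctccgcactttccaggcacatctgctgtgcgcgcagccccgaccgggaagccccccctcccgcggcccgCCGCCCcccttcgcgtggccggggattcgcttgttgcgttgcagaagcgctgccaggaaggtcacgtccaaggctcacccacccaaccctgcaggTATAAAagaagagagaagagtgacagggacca

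A TATA box, found in 12.9% of 33469 windows of this length, stands 13 bases before the start of Pdyn and 32 bases before that of Pomc. GC boxes (30.5% of windows) number 4 for Oprd1 and 1 for Pomc, and an E-box (5.59%) stands in the window of Oprd1 alone among these 5. The windows of Oprm1 hold none of the 5 motifs, and the cyclic AMP response element (1.59%) and the AP-1 site (4.05%) were found in none of the 5 windows. G and C make up 58.4% and 36.4% of the 2 Oprm1 windows in the order above, 59.2% of that of Pdyn, 79.6% of that of Oprd1 and 66.4% of that of Pomc. The probe sets do not tell the starts of a gene apart, and a match is a description of the letters only.

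**Figure D1:**
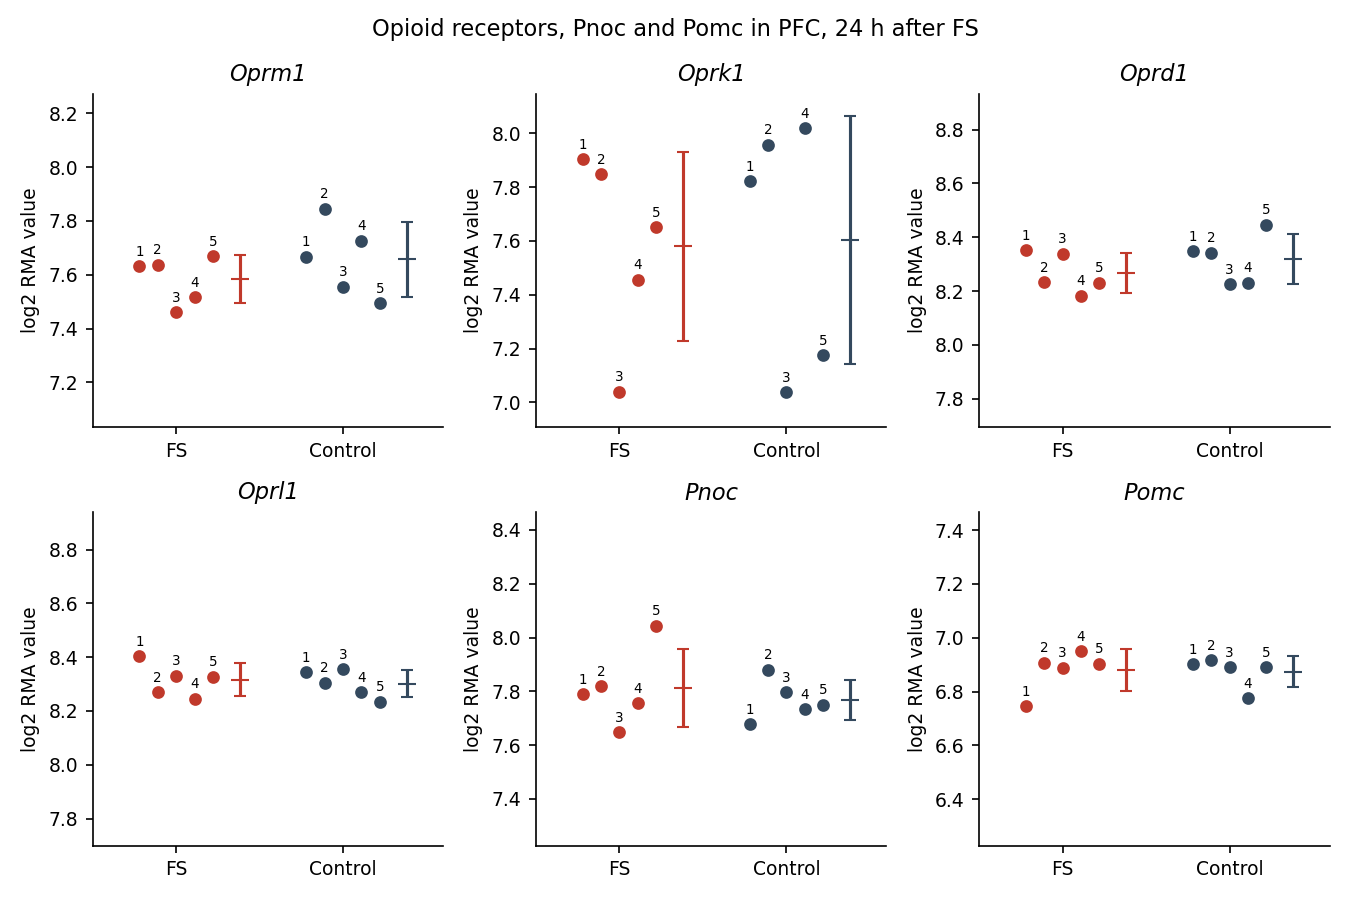
Log2 RMA value of each member in each of the 10 rats (dots, numbered by replicate), FS rats in red and controls in dark blue, with mean and SD beside them. Every panel spans the same number of log2 units, so the wide spread of Oprk1 in both groups can be set against the narrow one of Oprl1.

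Oprm1, the mu receptor through which beta-endorphin, enkephalin and morphine act, had levels of 7.63, 7.64, 7.46, 7.52 and 7.67 in FS replicates 1 to 5, against 7.67, 7.85, 7.56, 7.73 and 7.50 in control replicates 1 to 5. FS replicate 3 and control replicate 5 were the lowest of their groups and control replicate 2 was the highest of all rats. The mean was 7.58 ± 0.089 in FS rats and 7.66 ± 0.14 in controls (SD, n = 5 each), a log2 fold change of -0.07 (95% interval -0.22 to 0.07, standard error 0.066, limma adjusted p = 0.734). Thus 1 of 5 FS rats lay above the median of the controls. The interval reaches a 1.16-fold difference at most.

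Oprk1, the kappa receptor for the dynorphins, had levels of 7.90, 7.85, 7.04, 7.46 and 7.65 in FS replicates 1 to 5, against 7.82, 7.96, 7.04, 8.02 and 7.18 in control replicates 1 to 5. FS replicate 3 and control replicates 3 and 5 were low, and the highest rat of all was 1.97-fold above the lowest. The mean was 7.58 ± 0.35 in FS rats and 7.60 ± 0.46 in controls (SD, n = 5 each), a log2 fold change of -0.02 (95% interval -0.48 to 0.44, standard error 0.21, limma adjusted p = 0.982). Its SD within the groups was larger than that of 99.5% of the probe sets tested, and the interval leaves room for a 1.40-fold difference. The direction turned without FS replicate 3 (0.11) or 4 (0.0078) and without control replicate 1 (0.03), 2 (0.07) or 4 (0.08).

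Oprd1, the delta receptor, which prefers enkephalins, had levels of 8.35, 8.23, 8.34, 8.18 and 8.23 in FS replicates 1 to 5, against 8.35, 8.34, 8.23, 8.23 and 8.45 in control replicates 1 to 5. The highest rat was control replicate 5 and the lowest FS replicate 4, with the rest mixed between the groups. The mean was 8.27 ± 0.074 in FS rats and 8.32 ± 0.092 in controls (SD, n = 5 each), a log2 fold change of -0.05 (95% interval -0.16 to 0.06, standard error 0.052, limma adjusted p = 0.764). Without control replicate 5 the log2 fold change was -0.02.

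Oprl1, the nociceptin receptor, had levels of 8.40, 8.27, 8.33, 8.25 and 8.33 in FS replicates 1 to 5, against 8.34, 8.30, 8.36, 8.27 and 8.23 in control replicates 1 to 5. The 10 rats lay within 0.17 of each other and the groups covered nearly the same range. The mean was 8.32 ± 0.061 in FS rats and 8.30 ± 0.050 in controls (SD, n = 5 each), a log2 fold change of 0.01 (95% interval -0.08 to 0.10, standard error 0.041, limma adjusted p = 0.930). Only 18.7% of the probe sets tested had a smaller SD within the groups. The interval of this receptor reaches a 1.07-fold difference at most.

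Pnoc, which encodes the precursor of nociceptin and in cortex is expressed by a class of GABAergic neurons, had levels of 7.79, 7.82, 7.65, 7.76 and 8.04 in FS replicates 1 to 5, against 7.68, 7.88, 7.80, 7.73 and 7.75 in control replicates 1 to 5. FS replicate 5 was the highest of all rats and FS replicate 3 the lowest, so that the controls lay between them. The mean was 7.81 ± 0.15 in FS rats and 7.77 ± 0.076 in controls (SD, n = 5 each), a log2 fold change of 0.04 (95% interval -0.10 to 0.19, standard error 0.066, limma adjusted p = 0.853). Without FS replicate 5 the log2 fold change was -0.01.

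Pomc encodes the precursor of beta-endorphin, corticotropin and the melanocortins, and is made mainly in the pituitary and the arcuate nucleus of the hypothalamus. Its levels were 6.75, 6.91, 6.89, 6.95 and 6.90 in FS replicates 1 to 5, against 6.90, 6.92, 6.89, 6.77 and 6.89 in control replicates 1 to 5. Apart from 1 lower rat in each group, FS replicate 1 and control replicate 4, the rats were close together. The mean was 6.88 ± 0.078 in FS rats and 6.87 ± 0.057 in controls (SD, n = 5 each), a log2 fold change of 0.0041 (95% interval -0.09 to 0.10, standard error 0.045, limma adjusted p = 0.986). The values hold no detection call, so whether this signal lies above background was not tested.

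The 2 other opioid precursors are encoded by Penk, for the enkephalins, and Pdyn, for the dynorphins. Penk had levels of 10.87, 10.66, 10.13, 10.45 and 10.55 in FS replicates 1 to 5, against 10.93, 11.04, 10.14, 10.91 and 10.52 in control replicates 1 to 5. The lowest rat in either group was replicate 3, and 0 of 5 FS rats lay above the median of the controls. Its log2 fold change was -0.18 (95% interval -0.55 to 0.19, standard error 0.17, limma adjusted p = 0.755). It was -0.08 without FS replicate 3 and -0.32 without control replicate 3.

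Pdyn had levels of 8.22, 8.37, 7.94, 8.04 and 8.18 in FS replicates 1 to 5, against 8.20, 8.51, 7.83, 8.37 and 7.77 in control replicates 1 to 5. The groups overlapped, with control replicates 3 and 5 lowest. Its log2 fold change was 0.02 (95% interval -0.28 to 0.31, standard error 0.14, limma adjusted p = 0.981). For Penk and Pdyn, 99.1% and 98.4% of the probe sets tested had a smaller SD within the groups.

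**Figure D2:**
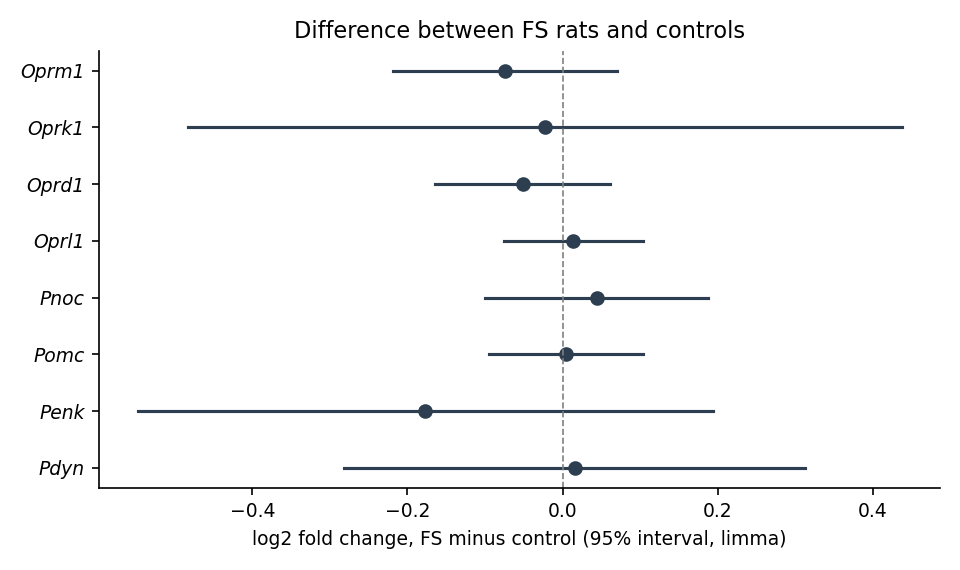
Log2 fold change, FS minus control, of the 6 members and of Penk and Pdyn, with the 95% interval from limma as a horizontal line. Every interval includes 0, and those of Oprk1, Penk and Pdyn are the widest, at -0.48 to 0.44 for Oprk1.

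The members fell apart by how they varied from rat to rat. Oprm1 and Oprk1 varied together (Pearson r = 0.88, Spearman rho = 0.79 over 10 rats, group means removed), and of the 15 pairs of members this was the 1 pair above 0.8. The other pairs had r between -0.43 and 0.56, the highest of them being Oprm1 with Pnoc. Oprk1 also varied with Penk (r = 0.96) and Pdyn (r = 0.93), and Oprm1 with Pdyn (r = 0.95) and Penk (r = 0.80). The printed windows of Oprm1 and Pdyn share none of the 5 motifs. This describes the letters only, and shared regulation was not tested. All of these correlations are descriptions over the same 10 arrays, which share their normalization, and carry no test.

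Oprk1 and Oprm1 followed the markers of striatal medium spiny neurons, the projection neurons of the striatum. Neither the labels nor the methods record whether striatal tissue was included in the dissections, and its share in the levels of Oprk1, Oprm1, Penk and Pdyn was not tested. Of 22 markers, 20 were tested, and their mean, centred per gene, was 0.16, 0.15, -0.43, -0.09 and -0.05 in FS replicates 1 to 5, against 0.30, 0.41, -0.32, 0.26 and -0.39 in control replicates 1 to 5. The low rats were FS replicate 3 and control replicates 3 and 5, the same rats that were low for Oprk1, and of the 20 markers 16 were lower on average in FS rats and 4 higher, none of them past the test. With this mean, and with group means removed, r was 0.97 for Oprk1 (rho = 0.83) and 0.90 for Oprm1 (rho = 0.77). Without the 2 rats farthest from the median, r was 0.96 for Oprk1 and 0.80 for Oprm1, and over the 7 rats left without all 3 low ones it was 0.80 and 0.56. For the remaining members r was -0.18 for Oprd1, 0.14 for Oprl1, 0.24 for Pnoc and -0.24 for Pomc, but without the 3 low rats it was 0.71 for Oprd1 and 0.45 for Oprl1.

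**Figure D3:**
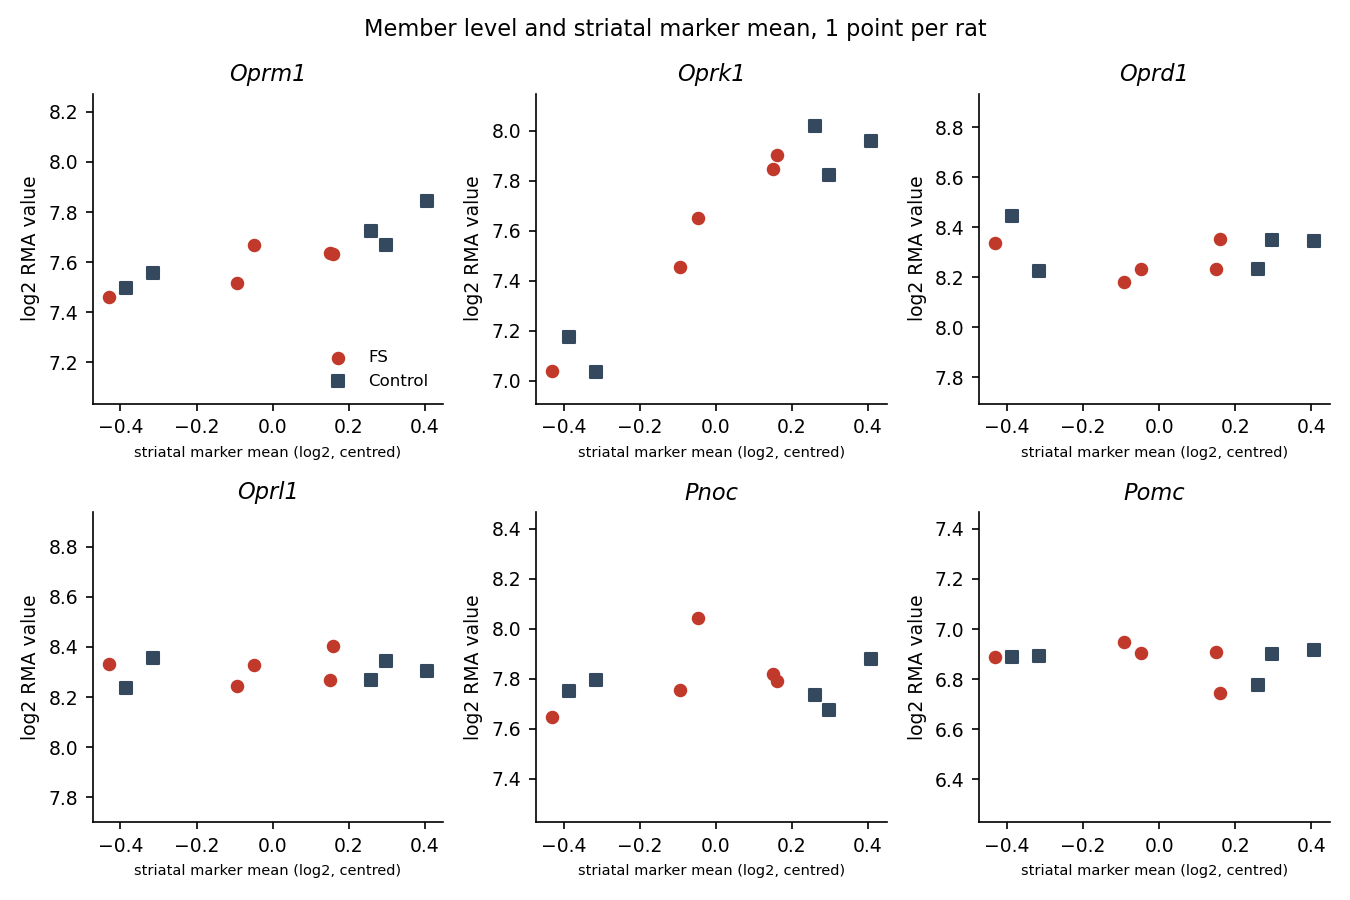
Log2 RMA value of each member (vertical, the same span in every panel) against the mean of the 20 striatal markers (horizontal, log2, centred per gene), 1 point per rat, FS as red circles and controls as dark blue squares. Oprk1 and Oprm1 climb with the marker mean, while Oprl1, Pnoc and Pomc stay flat or scatter. For Oprk1 and Oprm1, r was 0.97 and 0.90 with group means removed, a step not applied to the points shown.

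Drd1, the dopamine D1 receptor, is a striatal marker here. It had the pattern most like that of Oprk1 among all 18303 other probe sets (r = 0.99). Its levels were 8.02, 8.11, 7.17, 7.62 and 7.83 in FS replicates 1 to 5, against 8.13, 8.34, 7.33, 8.28 and 7.34 in control replicates 1 to 5. With the marker mean as a covariate in limma, an alternative chosen after seeing the data, Oprk1 had a log2 fold change of 0.11 with a standard error of 0.063 (adjusted p = 0.591), Oprm1 -0.04 with 0.041 (adjusted p = 0.786), Pdyn 0.10 with 0.055 (adjusted p = 0.583) and Penk -0.08 with 0.075 (adjusted p = 0.770). The standard error of Oprk1 was thus 0.063 with the covariate and 0.21 without it, and no call was gained.

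Of the other marker lists, those of the claustrum and layer 6b followed Oprk1 (r = 0.92) and, less closely, Oprm1 (r = 0.69). This list was lowest in the same 3 rats, at -0.11 in FS replicate 3, -0.15 in control replicate 3 and -0.12 in control replicate 5, so it cannot be told apart from the striatal list here. Markers of GABAergic interneurons had r = 0.75 with Oprm1 and 0.59 with both Oprk1 and Pnoc, and those of oligodendrocytes 0.71 with Oprk1, 0.52 with Oprm1 and -0.52 with Oprl1. The GABAergic list includes Gad1, Gad2 and Slc32a1, genes of GABAergic neurons in general, so it is not specific to interneurons. Whether it varied apart from the striatal list was not tested. Oprl1 had its highest r with markers of cortical projection neurons (0.56), Pomc with those of hypothalamus and pituitary (0.53) and Oprd1 with the same list (0.32). The mean of the hypothalamus and pituitary list ran only from -0.07 to 0.05 over the rats. Whether the signals of that list lie above background was not tested. The part of any cell type in these values was not tested.

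**Figure D4:**
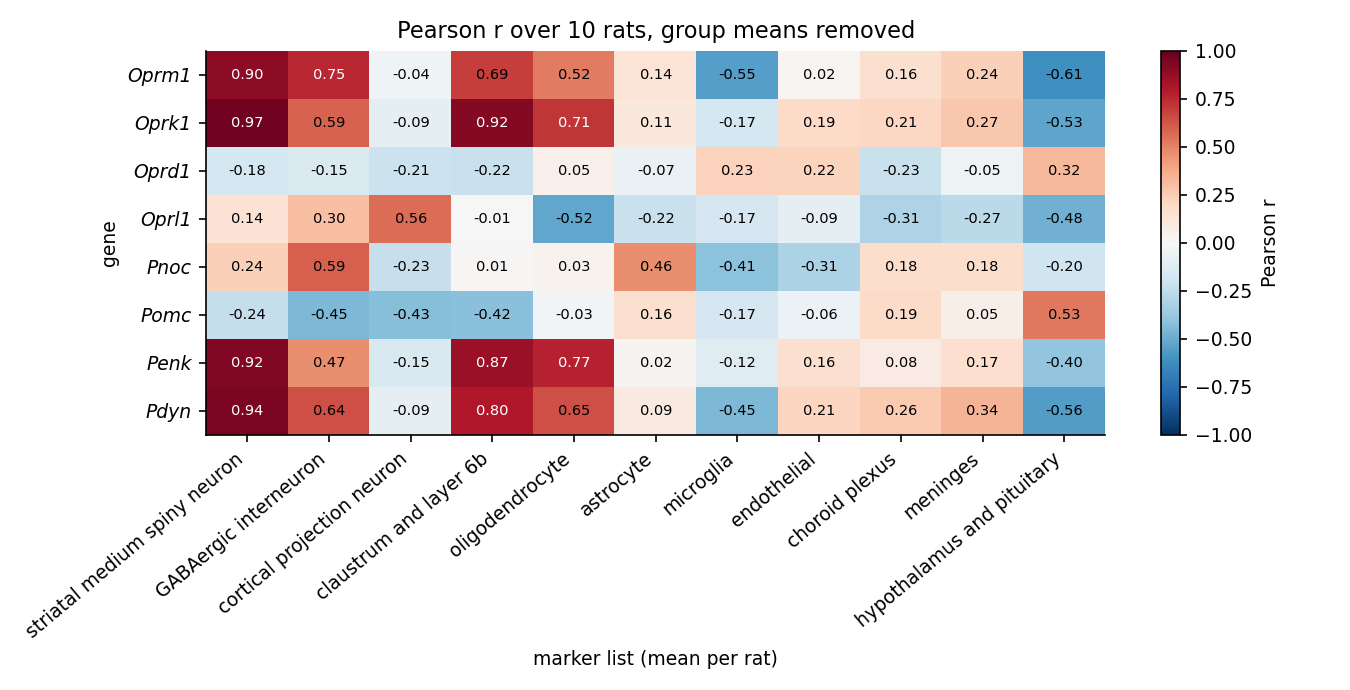
Pearson r over the 10 rats, with group means removed, between each gene (rows) and the mean per rat of each marker list (columns), from blue (-1) to red (1). The rows of Oprm1, Oprk1, Penk and Pdyn are alike, with r of 0.90 to 0.97 for striatal markers, whereas Oprd1, Oprl1, Pnoc and Pomc have no r above 0.6.

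Besides Drd1, the genes most like Oprk1 were Smurf2 (r = 0.99), a ubiquitin ligase, and Nexn (r = 0.98), an actin-binding protein, and the least like was Fbxl22 (r = -0.96). Those most like Oprm1 were Ryr3 (r = 0.99), a calcium channel of the endoplasmic reticulum, Eif1a (r = 0.96) and Tmed5 (r = 0.96), with Krtap5-8 (r = -0.95) at the other end. For Oprk1, 365 of 18303 probe sets had r above 0.8, and for Oprm1 386, but for Oprd1 76, for Oprl1 116, for Pnoc 60 and for Pomc 77. The nearest to Oprd1 were Dusp9 (r = 0.93), a phosphatase of MAP kinases, Or14p1 (r = 0.92) and Kcnj14 (r = 0.91), and to Oprl1 Camkv (r = 0.94), Rbm12 (r = 0.93) and Dld (r = 0.93). The nearest to Pnoc were Prss22 (r = 0.95), Creg1 (r = 0.93) and Rnf32 (r = 0.92), and to Pomc Or5m10b (r = 0.96), an olfactory receptor gene, Lca5l (r = 0.94) and Klk7 (r = 0.93). By rank, the genes nearest to Pomc were less close to it, with rho of 0.72 for Or5m10b, 0.61 for Lca5l and 0.78 for Klk7. The least like were Sval2 for Oprd1 (r = -0.91), Kcnh8 for Oprl1 (r = -0.95), Rpl36a for Pnoc (r = -0.95) and Zc3h15 for Pomc (r = -0.96). These values say nothing of shared function.

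The genes around the receptors were described in 7 lists of 62 genes, 57 of which were tested. At an adjusted p under 0.05, 0 of 57 passed in limma. At an unadjusted p under 0.05, 2 were higher and 2 lower in FS rats, 7.02% of the 57 against 9.84% of all probe sets (5.75% higher and 4.09% lower). Their median log2 fold change was -0.0044, against 0.00044 over all probe sets tested, and 28 were positive and 29 negative. In 3 of the 57 the groups did not overlap (Pcsk5 and Grk6 lower, Agrp higher in FS rats), against 1.94% of all probe sets (0.972% in each direction).

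**Figure D5:**
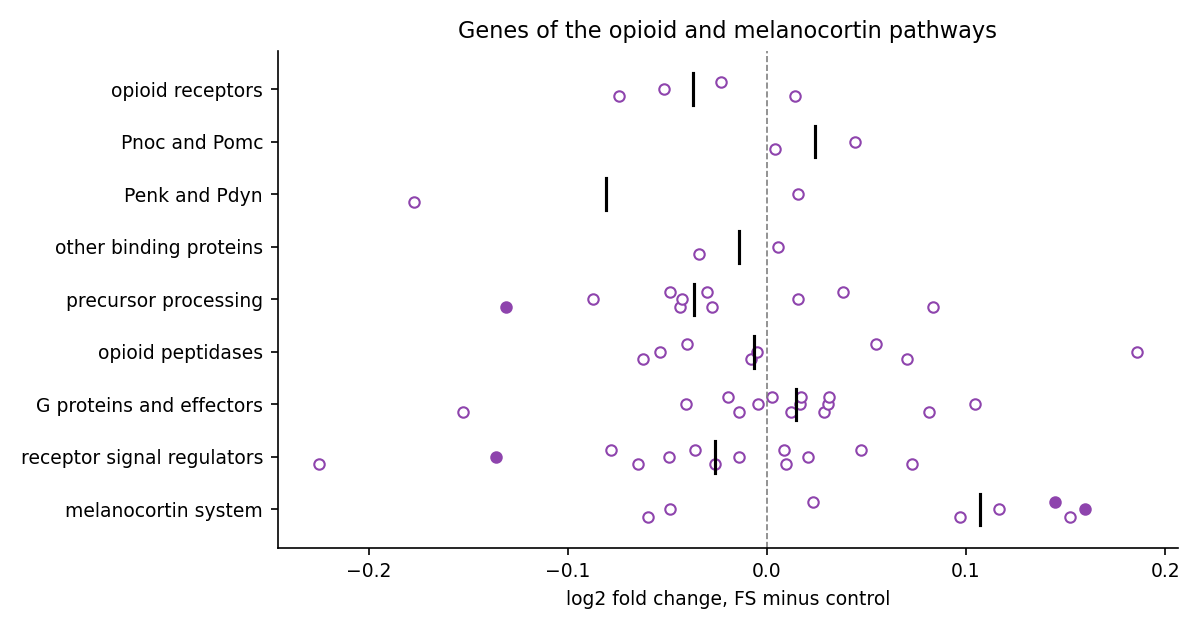
Log2 fold change, FS minus control, of each tested gene of the receptors, precursors and 7 pathway lists (circles), with the list's median as a vertical bar. Filled circles have an unadjusted p under 0.05 in limma (Pcsk5 and Grk3 lower, Asip and Agrp higher), and 0 genes passed after adjustment.

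The list of precursor processing holds enzymes that cut and finish peptide precursors, and also Scg5 and Pcsk1n, which are not enzymes. Of its 12 genes 10 were tested, and Pcsk1 and Cpe were not. The log2 fold change was positive in 3 and negative in 7 (median -0.04). Which of these genes act on opioid precursors in this tissue was not tested. Pcsk5, a proprotein convertase, had levels of 7.55, 7.53, 7.64, 7.64 and 7.58 in FS replicates 1 to 5, against 7.72, 7.68, 7.79, 7.67 and 7.74 in control replicates 1 to 5. All 5 FS rats lay below all 5 controls, and the log2 fold change was -0.13 with a standard error of 0.038 (limma, adjusted p = 0.369). Next lowest by its moderated statistic, Qpct, which forms pyroglutamate at peptide ends, had -0.09 (adjusted p = 0.655). Pcsk2, the main convertase of neuropeptide precursors, and Scg5, its chaperone, were at the other end of the list with 0.08 and 0.04 (adjusted p = 0.597 and 0.738). Without control replicate 5 they were at 0.04 and 0.02, and without FS replicate 5 Qpct was at -0.04.

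Peptidases that break down opioid peptides (8 of 8 tested, 3 positive and 5 negative, median -0.0063) had their lowest moderated statistics for Ece1 (-0.06) and Anpep (-0.04) and their highest for Npepps (0.05) and Ace (0.19), with adjusted p-values from 0.694 to 0.796 in limma. Without control replicate 5, Npepps was at 0.02 and Anpep at -0.03, and without FS replicate 4 Ece1 was at -0.03. Ace was at 8.36 in FS replicate 2, against 7.43 to 7.51 in the other FS rats and 7.41 to 7.52 in controls. The markers of choroid plexus (7 of 7 tested) had a mean of 2.06 in that rat, against -0.34 to 0.17 in the other FS rats and -0.43 to -0.11 in controls. Those of the meninges were also highest there, at 1.01, against -0.56 to -0.10 in the other FS rats and -0.07 to 0.14 in controls. Without that rat the log2 fold change of Ace was 0.0089. The part of either list in the value of Ace was not tested further. Mme, the neprilysin that degrades enkephalins, followed the striatal markers (r = 0.95), at 7.52, 7.37, 6.87, 7.33 and 7.17 in FS replicates 1 to 5, against 7.39, 7.55, 7.04, 7.37 and 6.95 in control replicates 1 to 5.

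G proteins and effectors (14 of 14 tested, 9 positive and 5 negative, median 0.01) had their lowest statistics for Adcy5 (-0.15), which is a striatal marker here, and Cacna1a (-0.04), and their highest for Kcnj3 (0.10) and Gnai1 (0.08). Kcnj3 is a subunit of the potassium channel that opioid receptors open, and Gnai1 a subunit of the inhibitory G protein. Their adjusted p-values in limma were 0.607 for Kcnj3, 0.526 for Gnai1, 0.723 for Adcy5 and 0.826 for Cacna1a. Without FS replicate 2, Cacna1a was at -0.0080, and without control replicate 5, Adcy5 was at -0.24.

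Kinases, arrestins and RGS proteins that end the receptors' signal (13 of 14 tested, 5 positive and 8 negative, median -0.03) had their lowest statistics for Grk3 and Grk6. Grk3, a kinase that desensitizes opioid receptors, had levels of 8.84, 8.63, 8.96, 8.82 and 8.82 in FS replicates 1 to 5, against 8.98, 8.93, 8.99, 8.96 and 8.90 in control replicates 1 to 5. FS replicate 3 alone lay among the controls (log2 fold change -0.14 with a standard error of 0.053, limma adjusted p = 0.451). Grk6 lay between 8.40 and 8.42 in FS rats and between 8.42 and 8.59 in controls (-0.08, adjusted p = 0.519). Gnb5 (0.05) and Rgs4 (0.07) had the highest moderated statistics, but without control replicate 5 these values were 0.0074 and 0.03.

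The melanocortin system uses the other peptides cut from the Pomc precursor. Among 8 tested of its 9 listed genes, 6 log2 fold changes were positive and 2 negative (median 0.11), and 0 passed the adjusted test. Means in FS rats ran from 5.38 (Mc3r) to 7.93 (Mrap2). Over all probe sets, 1053 were higher and 749 lower in FS rats at an unadjusted p under 0.05 in limma. Among those averaging above 6, 866 were higher and 714 lower, a weaker lean in the same direction. With arrays centred on their medians, 597 were higher and 1320 lower over all probe sets, so the lean depends on the scaling. The part of this lean in the list was not tested. Agrp, an antagonist of melanocortin receptors made in the arcuate nucleus, had levels of 7.52, 7.51, 7.51, 7.64 and 7.48 in FS replicates 1 to 5, against 7.45, 7.31, 7.34, 7.29 and 7.46 in control replicates 1 to 5. All FS rats lay above all controls, by little in some cases (log2 fold change 0.16 with a standard error of 0.047, limma adjusted p = 0.369). As for Pomc, there is no detection call, so whether the signals of Agrp and the other genes of this list lie above background was not tested. Asip, the agouti antagonist of the skin, had 0.14 (adjusted p = 0.446), and the lowest statistics were those of Mrap2 (-0.06) and Mc3r (-0.05), of which Mrap2 was at -0.0023 without FS replicate 4 and Mc3r at 0.0064 without control replicate 1. Of the 14 markers of hypothalamus and pituitary, which include Agrp, 13 were tested, and their mean was -0.02 to 0.05 in FS rats, against -0.07 to 0.05 in controls.

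Ackr3, an atypical receptor that scavenges opioid peptides, differed by -0.03 on the log2 scale (limma adjusted p = 0.871), and Ogfr, the opioid growth factor receptor, 0.0058 (adjusted p = 0.983). Over all 7 lists, 8 of 57 genes had r above 0.8 with the striatal marker mean, namely Penk, Pdyn, Cpd, Mme, Gnai3, Adcy5, Rgs9 and Mc4r. Of these, Adcy5 and Rgs9 are striatal markers themselves and were left out of the mean for their own value. In 1 further gene, Pcsk5, r was below -0.8 (-0.802). The same counts were not made over all probe sets, so whether these are unusual was not tested.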

How the data were processed

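PFC RNA of 5 FS rats and 5 controls was hybridised to Affymetrix GeneChip Rat Gene ST arrays. The submitters' processing notes name oligo 1.58.0 and RMA, and the log2 values deposited by the authors, 1 per probe set and array, were used as they stand. RMA draws arrays to a common distribution, so a shift of the whole transcriptome would not show. Groups and replicate numbers came from the sample labels. Of 29214 probe sets, the platform annotation gives 18644 exactly 1 symbol, 962 several and 9608 none, and the RefSeq gene table of GRCr8 gave the same symbol for the 6 members.

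The FS group was set against controls in limma 3.58.1 (R 4.3.3, moderated statistics, Benjamini–Hochberg adjustment, threshold 0.05, 95% intervals), and the code was tested on simulated data. Arrays have no read depth, so their number limits the precision. Genes named are the 6 members, Penk and Pdyn, the 2 lowest and 2 highest moderated statistics of each pathway list, the 3 most alike and the least alike to each member, and chosen cell type markers; Mme and the few genes behind a count were named after their values were seen. Members and lists were chosen with earlier results of these data known. Figures were drawn with matplotlib 3.10.9. Alternatives changed the filter, the scaling, array weights, the variance prior, the adjustment, the replicate block and the rats included.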

Additional observations from a re-analysis of the deposited data

Results flagged for a closer look

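Among the values of the 6 members, Penk and Pdyn in each group of 5 rats, 16 groups in all, 1 had a rat far from the others. Pomc was at 6.77 in control replicate 4, against 6.89 in the nearest other control, a gap of 0.816 of the group's range. Chance alone sets a rat apart in this way in roughly 5% of groups. Without that rat, the log2 fold change of Pomc was -0.02, against 0.0041 over all rats. In FS rats, Pomc was also lowest in 1 rat, FS replicate 1 (6.75), whose gap was 0.701 of the range.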

How the results depend on the processing

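No member passed in limma under any of the 20 alternatives, where the adjusted p was 0.430 or higher, and Oprm1 and Oprd1 were lower in FS rats in each of them. For the other members the sign was not stable. In every member the difference was smaller than the SD within the groups, also in Oprm1 (-0.07, SD 0.12) and Oprd1 (-0.05, SD 0.084). The alternatives reuse the same rats, so a constant sign is not independent support. With each array centred on its median, the log2 fold changes were -0.0077 for Oprl1, -0.017 for Pomc, -0.0057 for Pdyn and -0.016 for Ogfr. The median of the precursor processing list was then -0.058. In that setting, 597 probe sets were higher and 1320 lower at an unadjusted p under 0.05 in limma. Pomc was at -0.031 after a further quantile normalization and at -0.0082 with array weights, where Pdyn was at -0.019. With all probe sets in the adjustment, named or not, 2841 had an unadjusted p under 0.05, 1810 of them higher, since more were tested. With the striatal marker mean as a covariate, chosen after seeing the data, Oprk1 was at 0.11 and Pomc at -0.0013. For the remaining changes the cause was not tested.

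When 1 rat was left out at a time, log2 fold changes ranged from -0.16 to 0.11 for Oprk1, from -0.0081 to 0.031 for Oprl1, from -0.014 to 0.085 for Pnoc, from -0.021 to 0.037 for Pomc and from -0.076 to 0.11 for Pdyn. They ranged from -0.12 to -0.027 for Oprm1 and from -0.075 to -0.020 for Oprd1. They ranged from -0.32 to -0.077 for Penk. Of the list genes, only those named by their moderated statistics were refitted, and among these the sign turned in some fits for Ogfr, Ackr3 and Mc3r, which ranged from -0.029 to 0.048 for Ogfr, from -0.064 to 0.0057 for Ackr3 and from -0.11 to 0.0064 for Mc3r. Probe sets called numbered 0 to 1 (Or4c122, without control replicate 2), those with an unadjusted p under 0.05 1333 to 2589, and the higher ones 784 (without FS replicate 4) to 1641 (without control replicate 5). With the replicate number as a block, 1803 probe sets had an unadjusted p under 0.05 and 0 passed; samples with the same number deviated together in 2 of 5 pairs (r above 0.1), and the labels give no shared litter or day, so the rats were treated as unpaired. The mean of several probe sets per gene was not run, since each member has 1.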
